A study of Rattus norvegicus with 3 samples.

Results

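The genes described here encode the nuclear part of oxidative phosphorylation, the machinery of the inner mitochondrial membrane that makes ATP. They were chosen by symbol from the deposited table: every symbol that begins with NDUF, UQCR or ATP5, the subunits SDHA to SDHD, the symbols of cytochrome c oxidase subunits (COX4 to COX8 followed by a letter), and CYC1 and CYCS. COX6A2, the isoform of heart and skeletal muscle, was left out. This gave 99 of 12758 symbols, and no value filter was applied to them. RNA had been measured in the supernatant of digested spinal cord from Sprague Dawley rats, all female and 3 months old, taken just rostral to the lesion level 24 h after surgery. Controls (No-SCI) had a laminectomy at the ninth thoracic level without contusion, and injured animals (SCI) had the same laminectomy followed by a moderate to severe contusion. Tissue from both groups was digested in the cold with a protease of Bacillus licheniformis, the cells were spun down, and stranded libraries were prepared from the RNA left in solution after removal of ribosomal RNA. The labels show 2 No-SCI samples and 1 SCI sample, whereas the methods of the study state 2 animals per condition.

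The values analysed here are the authors' FPKM (fragments per kilobase of transcript, scaled between libraries). The methods of the study describe this scaling by mapped reads and also name upper quartile normalization. There is 1 value per group and gene. No spread between animals, error or test can therefore be given for any value below, and the number of fragments behind a value is unknown. Each difference is a log2 ratio, SCI over No-SCI, without a pseudocount, and a difference of at least 1.3-fold, the minimum fold in the methods of the study, is called past the fold. In a supernatant, fewer cell fragments of a type and less RNA per fragment cannot be told apart. Among markers of cells that the tissue can hold, 11 of 12 oligodendrocyte genes, 8 of 13 neuronal genes, 5 of 8 astrocyte genes and 13 of 13 skeletal muscle genes were lower past the fold after SCI, and 10 of 10 meningeal fibroblast genes were higher. Over all symbols 35.7% were lower past the fold and 24.6% higher. The lists held 13 oligodendrocyte, 15 neuronal, 12 astrocyte and 15 muscle genes, and the rest were not analysed here. In the muscle list MYH1 and MYH2 have the same values. The summed FPKM of these marker lists went from 52630 to 30310 for oligodendrocytes, from 4115 to 2688 for neurons and from 14078 to 8986 for astrocytes. It went from 561 to 130 for muscle (COX6A2 included) and from 70.8 to 891 for fibroblasts. MOBP (44200 and 27648 FPKM) made up most of the oligodendrocyte sum. Most of the astrocyte sum was NDRG2 (8001 and 3228 FPKM) and GLUL (5858 and 5624 FPKM). Most of the neuronal sum was MAP2 (2140 and 860 FPKM) and GAP43 (1275 and 1406 FPKM). Of microglia and macrophage genes 6 of 12 were higher and 4 lower, with sums of 1440 and 2026 FPKM, and of endothelial genes 3 of 7 were higher and 1 lower, with sums of 41.3 and 61.9 FPKM. HBB, a hemoglobin chain of red cells, had 490 and 464 FPKM. The part of these shifts in the results below was not tested.

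As background, complex I takes electrons from NADH and complex II takes them from succinate, and both pass them to ubiquinone. Complex III moves them on to cytochrome c, a small soluble carrier, and complex IV delivers them to oxygen. Complexes I, III and IV pump protons, and complex V, the ATP synthase, uses the proton gradient to make ATP. Most subunits are encoded in the nucleus and imported, while core proteins of complexes I, III, IV and V come from the mitochondrial genome. The mitochondrially encoded genes were not analysed here. Long axons depend on mitochondria that are carried far from the cell body, and some mRNAs of these subunits are known to reach axons. Transcription of the nuclear genes is known to involve nuclear respiratory factor 1 (NRF1), the ETS factor GABPA, YY1 and the estrogen-related receptors, with coactivators of the PPARGC1 family.

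The choice by symbol did not use sequence, so the reference promoters of these genes were searched for the letters of 5 motifs. RefSeq promoters of the GRCr8 rat assembly, from 250 bases before to 50 bases after the gene start, were matched by symbol for 81 of the 99 genes. The NRF1 letters GCGCANGCG were found, on either strand, in 21 of the 81 promoters (25.9%), against 12.4% of 10771 promoters of symbols in the table and 5.8% of all 33469 reference promoters. The ETS letters CCGGAAG were in 23 (28.4%), against 16.7% and 8.75%, and the YY1 letters AAGATGGCG were in 11 (13.6%), against 3.32% and 1.73%. At least 1 of these 3 was present in 46 promoters (56.8%), against 28.3% of the promoters of table symbols. The letters CAAGGTCA of the estrogen-related receptors were in 4 (4.94%, against 1% and 1.52%). The letters GGGCGGG of SP1 and related factors were in 18 (22.2%), against 44% of the promoters of table symbols and 22.7% of all promoters. These shares are not particular to the oxidative phosphorylation genes, since mitochondrial ribosomal protein genes had similar ones. Of 60 promoters of the latter 20% held the NRF1 letters and 33.3% the ETS letters. The YY1 letters were in 13.3% and those of the estrogen-related receptors in 5%. Among 70 promoters of cytosolic ribosomal protein genes the ETS share was similar (28.6%). Their shares of the NRF1 (12.9%), YY1 (4.29%) and estrogen-related receptor letters (0%) were lower. The 16 promoters of citrate cycle and pyruvate enzymes had 12.5% (NRF1), 25% (ETS), 18.8% (YY1) and 0% (estrogen-related receptors). A match is a run of letters and not a measured binding site, and the motif letters of different factors can overlap.

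Windows of 30 bases are shown for 8 genes that stand at different ends of the results below: SDHA and NDUFS4 were lower after injury, NDUFB7, NDUFS8 and ATP5MC2 higher, and CYCS, ATP5F1C and NDUFS7 within the fold. They are printed 5′ to 3′ on the strand of the gene, with the matched letters in capitals.
SDHA, NRF1 letters: ggagcgtgttGCGCAGGCGcagagccttcc
CYCS, NRF1 letters: catgctagccCGCATGCGCgcgcaccttgc
ATP5F1C, NRF1 letters: ccgagctcccGCGCACGCGcagtgagcctc
ATP5MC2, NRF1 letters: ggctctagtcGCGCATGCGcagagccttct
NDUFB7, ETS letters: ggctagatgacCCGGAAGtcactgaagggg
NDUFS8, ETS letters: ttaggctccgcCTTCCGGttgacccgcacc
NDUFS4, YY1 letters: tgcccacaggAAGATGGCGgcggtctcaat
NDUFS7, YY1 letters: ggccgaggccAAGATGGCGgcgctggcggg

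In GRCr8 these windows lie at chr1:30764497-30764526 on the plus strand for SDHA, chr4:80984906-80984935 on the minus strand for CYCS, chr17:73333667-73333696 on the plus strand for ATP5F1C and chr7:135678255-135678284 on the minus strand for ATP5MC2. The NDUFB7 window is at chr19:41477289-41477318, that of NDUFS8 at chr1:210573692-210573721, that of NDUFS4 at chr2:47794891-47794920 and that of NDUFS7 at chr7:10110475-10110504, all on the minus strand. The NRF1 match of SDHA begins 46 bases before the gene start and is 1 of 3 matches in that promoter. In ATP5MC2 the NRF1 match begins 56 bases before the start and overlaps a second match on the other strand. The matches of NDUFS4 and NDUFS7 each begin 4 bases after the start and hold the letters ATG, so a match there can take in a start codon. Genes with and without the NRF1 letters had median log2 ratios of 0.31 (21 genes) and 0.15 (60 genes), and for the YY1 letters the medians were 0.30 (11 genes) and 0.18 (70 genes). The medians were 0.27 with and 0.16 without the ETS letters (23 and 58 genes). For the letters of the estrogen-related receptors they were 0.21 and 0.18 (4 and 77 genes), and for the SP1 letters 0.04 and 0.23 (18 and 63 genes). These differences were not tested, and the genes share the same libraries.

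**Figure D1:**
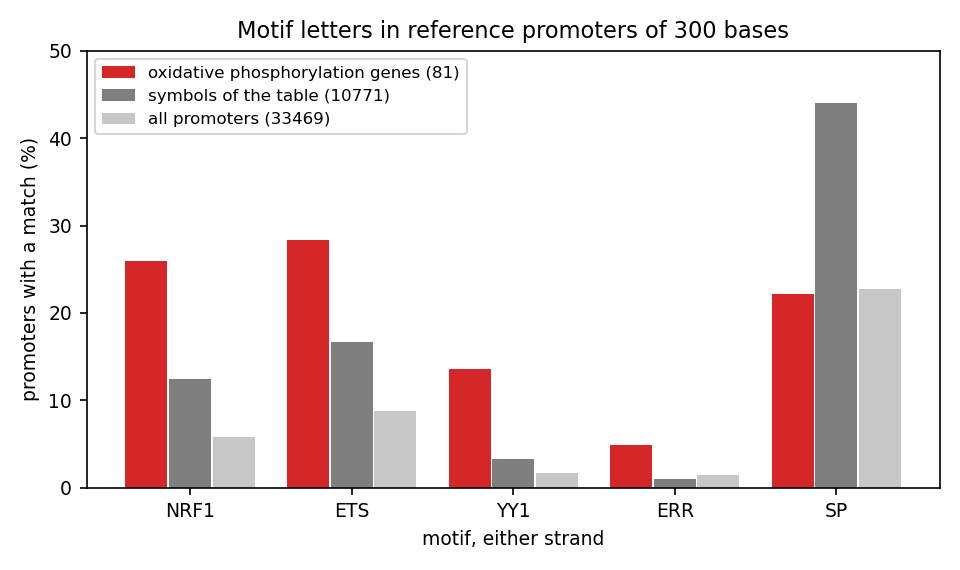
Share of reference promoters of 300 bases (y axis, percent) that hold the letters of each of 5 motifs on either strand (x axis), for the 81 oxidative phosphorylation genes with a promoter, the 10771 promoters of symbols in the table and all 33469 promoters. The share of the oxidative phosphorylation genes is the largest of the 3 for NRF1 (25.9%), ETS (28.4%), YY1 (13.6%) and ERR (4.94%), and for SP (22.2%) it lies below that of table symbols (44%).

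Most oxidative phosphorylation genes were abundant in the control group. Their median was 172 FPKM in No-SCI and 198 FPKM in SCI, against medians of 17.2 and 15.6 FPKM over all symbols, and 86 of the 99 genes lay above the No-SCI median of all symbols. Together they made up 2.59% of the summed FPKM in No-SCI and 3.23% in SCI. UQCR11, a small subunit of complex III, was the most abundant with 2197 FPKM in No-SCI and 2855 FPKM in SCI, followed by COX8A and COX6A1 of complex IV and by ATP5MC3 of the ATP synthase ring, and these 4 kept their order in SCI. At the other end COX8B, an isoform of muscle, had 3.24 FPKM in No-SCI. Of the 10 genes with at least 1000 FPKM in No-SCI, 7 carry values with 7 or more significant digits, more than the 6 of a single estimate. Whether such values are sums or means of several estimates is not given in the sources used here. Over all 99 genes 23 carry such values (23.2%), against 58.6% of all symbols.

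Differences after injury were small and mostly upward. Of the 99 genes 71 had a larger value in SCI than in No-SCI (71.7%, against 43.6% of all symbols), and the median log2 ratio was 0.23, against −0.12 over all symbols. Without symbols whose values carry 7 or more significant digits, left out after the values were seen, the medians were 0.19 over 76 genes and 0.0067 over all symbols, so that the gap was smaller and the median of all symbols was not under 0. Past the fold 30 genes were higher (30.3%), where 24.6% of all symbols were, and 10 were lower (10.1%), where 35.7% of all symbols were. The share of higher genes thus lay near the background and that of lower genes below it. A further 17 genes lay between 1.2-fold and 1.3-fold higher. With the median of all symbols centred at 0, which adds 0.12 to each log2 ratio, 79 genes lay above 0, and 47 genes were higher and 7 lower past the fold, where 30.1% and 30.3% of all symbols were. The middle 50% of the log2 ratios spanned −0.03 to 0.42, a width of 0.45, against 0.98 over all symbols. At a 1.5-fold minimum 11 genes were higher (11.1%, below the 16.9% of all symbols) and 7 lower (7.07%, against 26.3% of all symbols). At a 2-fold minimum 2 genes were higher (COX6B2 and COX4I2, against 7.93% of all symbols) and 2 lower (NDUFA10L1 and COX8B, against 12.1% of all symbols). The other 95 were within it. COX8B is listed in SCI at 1, the lowest value in the table. After median centring NDUFS4, NDUFC1 and COX4I1, which are lower past the fold as reported, were within it.

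To set these genes beside others of high level, the counts were also read among the 1933 symbols with a mean of at least 100 FPKM, a limit chosen after the values were seen. There 20 of 64 oxidative phosphorylation genes were higher past the fold (31.3%, against 29.5% of those symbols) and 1 was lower (1.56%, against 27.4%). The lower gene was COX4I1. The rank correlation between the No-SCI level and the log2 ratio over the 99 genes was 0.22 (Spearman), a description over genes that share the same libraries.

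**Figure D2:**
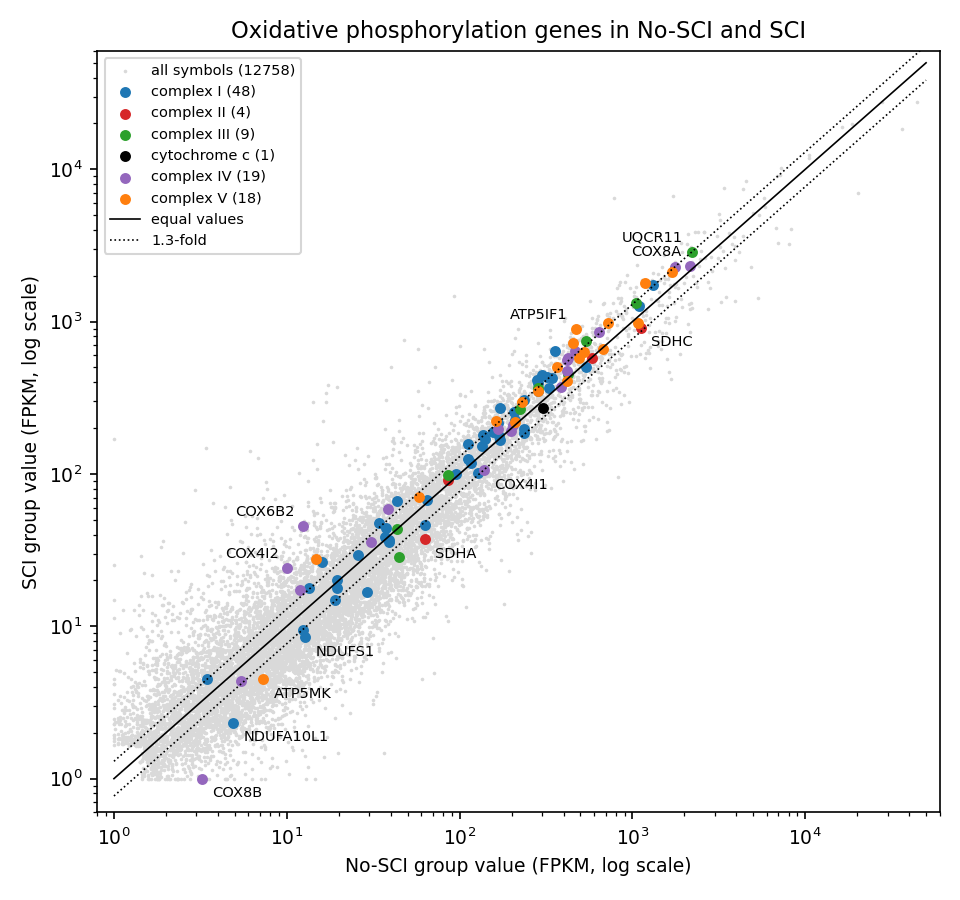
SCI against No-SCI group values (FPKM, both axes on a log scale) for all 12758 symbols in grey and the 99 oxidative phosphorylation genes coloured by complex, with lines for equal values and for 1.3-fold differences. Most coloured points lie above 100 FPKM and close to the line of equal values, while COX6B2 and COX4I2 lie above it and COX8B, NDUFA10L1 and SDHA below it. There is 1 value per group and no error bar can be drawn.

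By complex, the median log2 ratio was 0.17 for complex I (48 genes), −0.16 for complex II (4 genes), 0.27 for complex III (9 genes), 0.25 for complex IV (19 genes) and 0.31 for complex V (18 genes). Complex II was the only complex with a median under 0, and its median was −0.04 after median centring, −0.05 with the same upper quartile and −0.11 with the same total in both groups. Past the fold, 14 genes of complex I were higher and 5 lower, against none higher and 1 lower in complex II, 1 higher and 1 lower in complex III, 8 higher and 2 lower in complex IV, and 7 higher and 1 lower in complex V. The share of higher genes was 29.2% in complex I, near the 24.6% of all symbols, 42.1% in complex IV and 38.9% in complex V, and the share of lower genes in these 3 complexes ran from 5.56% to 10.5%, against 35.7% of all symbols. These medians and counts take in copies, assembly factors, tissue isoforms, COX7A2L and the inhibitor ATP5IF1. Among general subunits alone, 10 of 36 were higher past the fold in complex I (27.8%) and 0 of 8 in complex III. In complex IV 5 of 11 were higher (45.5%), and in complex V 5 of 16 (31.3%). Their median log2 ratios were 0.17, 0.23, 0.37 and 0.30 in the same order. The 1 higher gene of complex III was the copy UQCRB-PS1. The difference between complexes could not be tested.

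**Figure D3:**
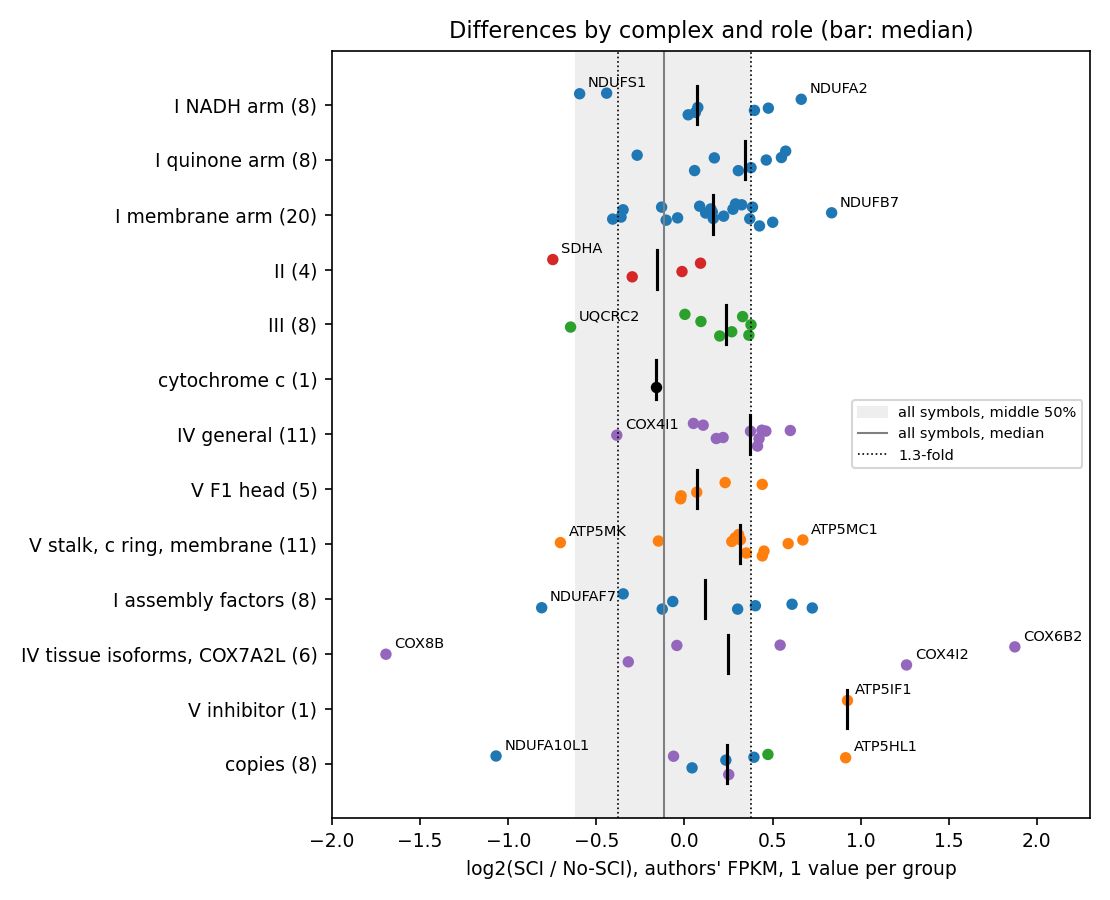
Log2 ratio of SCI to No-SCI (x axis) for each of the 99 genes, grouped by complex and, for complexes I, IV and V, also by role (y axis, number of genes in brackets), with a black bar at the median of each row, dotted lines at 1.3-fold, and a grey band and line for the middle 50% and the median of all symbols. Of the rows drawn, those of complex II and cytochrome c have medians to the left of the grey line, and the points farthest out are COX6B2, COX4I2 and COX8B.

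Complex I has an arm that oxidises NADH, an arm that hands electrons to quinone, and a membrane arm that pumps protons. In the NADH arm, NDUFS1, the largest subunit and a carrier of iron-sulfur clusters, had 12.8 FPKM in No-SCI and 8.46 FPKM in SCI, which is 1.51-fold lower (log2 ratio −0.59). It was also the least abundant subunit of that arm. NDUFS4, an accessory subunit needed for a stable NADH arm, went from 63.0 to 46.4 FPKM (log2 ratio −0.44). The flavin-binding subunit NDUFV1, with 117 and 119 FPKM, and its partner NDUFV2, with 36.8 and 38.8 FPKM, had nearly equal values in both groups. NDUFA2 and NDUFA12, small accessory subunits, were higher in SCI: NDUFA2 went from 172 to 272 FPKM (log2 ratio 0.66) and NDUFA12 from 283 to 394 FPKM (log2 ratio 0.48). NDUFV3 was just past the fold, with 137 and 180 FPKM. NDUFS6, which binds zinc, had 95.2 and 99.4 FPKM. Thus 3 of the 8 listed subunits of this arm were higher (37.5%), 2 lower (25%) and 3 within the fold. Of all symbols 24.6% were higher and 35.7% lower.

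In the quinone arm 3 of 8 subunits (37.5%) were higher past the fold and none was lower, against 24.6% and 35.7% of all symbols. The median log2 ratio of this arm was 0.34. NDUFS8, which carries the iron-sulfur clusters on the way to quinone, had 281 FPKM in No-SCI and 412 FPKM in SCI (log2 ratio 0.55). NDUFS7, which holds the last cluster before quinone, had 167 and 217 FPKM, a ratio of 1.299 that falls just short of the fold. NDUFA7 (300 and 447 FPKM) and NDUFA5 (34.4 and 47.4 FPKM), both accessory subunits, made up the rest of those past the fold. NDUFS3, NDUFA6 and NDUFA9 had log2 ratios from 0.06 to 0.31.

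The membrane arm had 20 listed subunits, with a median log2 ratio of 0.16. Past the fold 4 were higher (20%) and 1 lower (5%), against 24.6% and 35.7% of all symbols. NDUFB7, an accessory subunit on the intermembrane space side, went from 358 to 638 FPKM, 1.78-fold and the largest difference of any general subunit among the 99 genes (log2 ratio 0.84). NDUFA11, NDUFB9 and NDUFS5 were the others past the fold, with log2 ratios of 0.50, 0.43 and 0.39. NDUFS5 was the most abundant complex I subunit, with 1321 FPKM in No-SCI and 1727 FPKM in SCI. NDUFC1 was the one lower past the fold, from 12.5 to 9.40 FPKM. NDUFAB1, which is also the acyl carrier protein of mitochondrial fatty acid synthesis, had 39.2 and 35.8 FPKM. The 15 membrane arm subunits within the fold had log2 ratios from −0.36 for NDUFA3 to 0.37 for NDUFB6. NDUFB1 was not analysed here.

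The 8 complex I assembly factors help build the complex and are not part of it. Past the fold 3 were higher (37.5%) and 1 lower (12.5%), against 24.6% and 35.7% of all symbols. NDUFAF1 had 16.0 FPKM in No-SCI and 26.5 FPKM in SCI, NDUFAF5 had 43.6 and 66.6 FPKM, and NDUFAF4 had 13.5 and 17.8 FPKM. NDUFAF7, a methyltransferase, was the lower one, from 29.3 to 16.7 FPKM (log2 ratio −0.81). NDUFAF2, NDUFAF3, NDUFAF6 and NDUFAF8 had log2 ratios from −0.35 to 0.30.

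Complex II, succinate dehydrogenase, is the only complex encoded wholly in the nucleus and also works in the citrate cycle. SDHA, its flavoprotein, had 62.9 FPKM in No-SCI and 37.5 FPKM in SCI, 1.68-fold lower (log2 ratio −0.75) and the lowest log2 ratio of any general subunit. SDHB, the iron-sulfur subunit, had 85.9 and 91.5 FPKM. The membrane anchors SDHC and SDHD were far more abundant, with 1120 and 582 FPKM in No-SCI and 912 and 576 FPKM in SCI. In the assembled complex the subunits are present in equal numbers, while their No-SCI values spanned 17.8-fold. The value of SDHC carries more digits than a single estimate.

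In complex III the core proteins UQCRC1 and UQCRC2 were the least abundant. UQCRC1 had 43.6 and 43.7 FPKM, while UQCRC2 had 44.4 FPKM in No-SCI and 28.4 FPKM in SCI (log2 ratio −0.65). The redox subunits were not past the fold: UQCRFS1, the Rieske iron-sulfur protein, had 426 and 455 FPKM, and CYC1, cytochrome c1, had 283 and 364 FPKM. All 4 small subunits had larger values in SCI, with log2 ratios from 0.20 for UQCRB to 0.38 for UQCR11, and none was past the fold. UQCR10 was not analysed here. CYCS, the cytochrome c that shuttles between complexes III and IV and triggers caspases when released, had 302 FPKM in No-SCI and 270 FPKM in SCI (log2 ratio −0.16).

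In complex IV 5 of 11 general subunits were higher past the fold (45.5%) and 1 was lower (9.09%), against 24.6% and 35.7% of all symbols. COX5A, a subunit on the matrix side, had the largest difference, from 38.6 to 58.6 FPKM (log2 ratio 0.60). COX5B, COX7B, COX7C and COX6B1 followed within a narrow range of log2 ratios from 0.41 to 0.46, and COX6A1, at 1767 and 2291 FPKM, was 1.297-fold higher. COX8A, COX6C and COX7A2 had log2 ratios from 0.11 to 0.22. COX4I1, the general form of the subunit through which ATP inhibits the enzyme, was the lower one, with 138 FPKM in No-SCI and 106 FPKM in SCI (1.305-fold, log2 ratio −0.38). NDUFA4, once assigned to complex I and now known as a complex IV subunit, had 203 and 211 FPKM. COX7A2L, which joins complexes III and IV, had 385 and 374 FPKM.

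Isoforms of restricted tissue use had the 3 largest log2 ratios in size among the 99 genes, COX6B2 and COX4I2 upward and COX8B downward. The SCI value of COX8B is 1, the lowest value in the table, so the size of its ratio is uncertain. COX4I2, the isoform of lung and of oxygen-sensing cells, had 10.1 FPKM in No-SCI and 24.1 FPKM in SCI, a log2 ratio of 1.26, so that COX4I1 was 13.7 times as abundant as COX4I2 in No-SCI and 4.40 times in SCI. COX6B2, known best from testis, had 12.4 and 45.4 FPKM, 3.67-fold higher and the largest difference upward (log2 ratio 1.87). The COX6B1 to COX6B2 ratio went from 33.8 to 12.3. NDUFA4L2, a paralog of NDUFA4 that hypoxia is known to induce, had 11.9 and 17.3 FPKM (log2 ratio 0.54). All 3 were rare beside their general forms, and the values of all 3 carry 7 significant digits. COX4I2 and NDUFA4L2 are known in smooth muscle and mural cells. Of 9 genes of these cells 2 were higher (22.2%) and 4 lower (44.4%) past the fold, against 24.6% and 35.7% of all symbols. The summed FPKM of the 9 genes went from 449 to 567. This sum was mostly TAGLN, with 383 and 517 FPKM, and the other 8 genes summed to 66.0 FPKM in No-SCI and 49.3 FPKM in SCI. The sum of the fibroblast genes was higher as given above. The part of either in these values was not tested.

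The muscle isoforms had lower values in SCI. COX8B had 3.24 FPKM in No-SCI and is listed at 1 in SCI, the lowest value in the table, so no fold is given. COX7A1 had 5.44 FPKM in No-SCI and 4.36 FPKM in SCI, within the fold. COX6A2, left out by the rule, had 105 and 71.9 FPKM (log2 ratio −0.55). The skeletal muscle list, which includes COX6A2, moved in the same direction. ACTA1, skeletal actin, had 60.8 and 4.48 FPKM, and TNNT3, a troponin of fast muscle, had 180 and 14.1 FPKM. The part of muscle RNA in the values of the muscle isoforms was not tested.

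**Figure D4:**
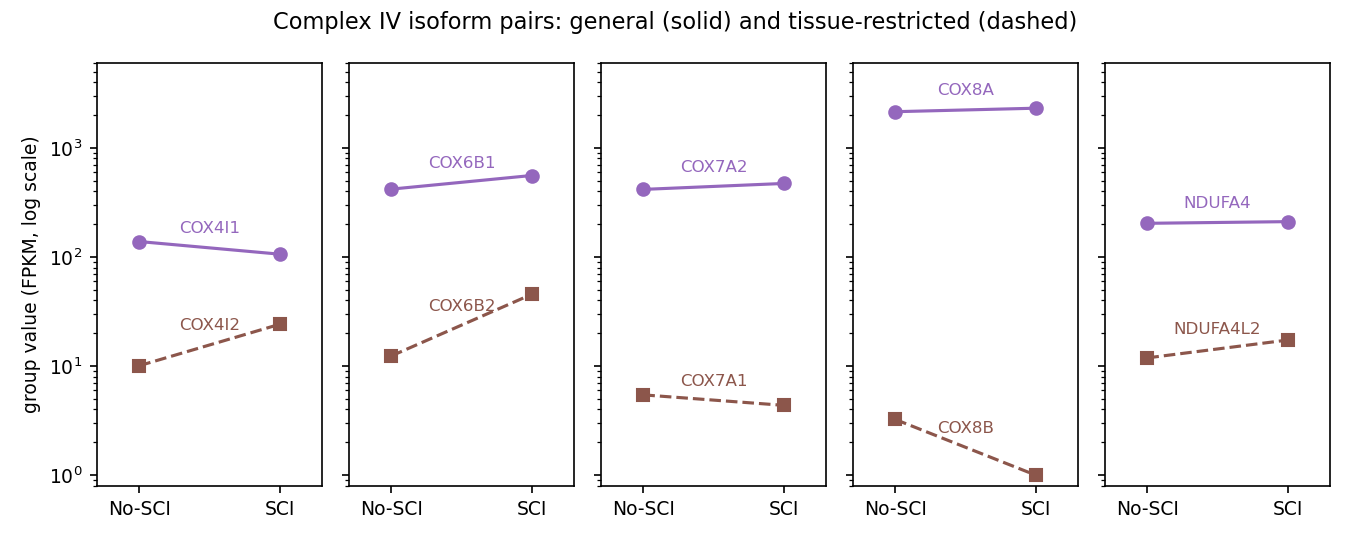
Group values (FPKM, log scale, y axis) in No-SCI and SCI (x axis) for 5 pairs of complex IV subunits, with the general form as circles and solid lines and the form of restricted tissue use as squares and dashed lines. COX4I2 and COX6B2 are higher in SCI than in No-SCI, and COX8B is listed at 1 in SCI. Points are single group values without error bars.

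The ATP synthase has a catalytic head (F1), a stalk that holds it, and a ring of c subunits that turns in the membrane. The catalytic subunits ATP5F1A (209 and 219 FPKM) and ATP5F1B (417 and 410 FPKM) and the central shaft ATP5F1C (675 and 666 FPKM) had nearly equal values in both groups. ATP5F1E, the smallest subunit of the head, was its only one past the fold, from 163 to 222 FPKM (log2 ratio 0.44). All 3 genes that encode the c ring had larger values in SCI: ATP5MC1 went from 455 to 725 FPKM (log2 ratio 0.67), ATP5MC2 from 718 to 975 FPKM (0.44) and ATP5MC3 from 1701 to 2120 FPKM (0.32). They encode the same mature protein, from precursors that differ in their import signal.

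Of the stalk subunits ATP5PF, coupling factor 6, was past the fold, from 1189 to 1787 FPKM (log2 ratio 0.59), while ATP5PB, the arm of the stalk, had 1080 and 975 FPKM. Among small membrane subunits ATP5ME had 367 and 502 FPKM. ATP5MK, which helps hold synthase dimers, was rare and 1.63-fold lower, from 7.29 to 4.48 FPKM. ATP5PD, ATP5PO, ATP5MF and ATP5MG had log2 ratios from 0.27 to 0.35. ATP5MJ was not analysed here. ATP5IF1, the protein that blocks ATP hydrolysis by the synthase when the proton gradient collapses, went from 471 to 893 FPKM, 1.90-fold higher (log2 ratio 0.92) and the largest upward difference among the 64 genes with a mean of at least 100 FPKM.

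Grouped by textbook function after the values were seen, 16 subunits formed a redox and catalytic core. These were the 7 nuclear-encoded core subunits of complex I, all 4 of complex II, UQCRFS1, CYC1, CYCS, ATP5F1A and ATP5F1B. The 16 had a median log2 ratio of 0.05, with 1 higher and 2 lower past the fold. The other 60 general subunits had a median of 0.28, with 19 higher and 5 lower. The shares of higher genes were 6.25% of the 16 and 31.7% of the 60, against 24.6% of all symbols. The shares of lower genes were 12.5% and 8.33%, against 35.7% of all symbols. The difference between the groups was not tested. In No-SCI these groups had medians of 223 and 234 FPKM.

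Of the 99 symbols 8 are copies of subunit genes, and 5 of them are pseudogenes in the RefSeq annotation of GRCr8. UQCRB-PS1 had 536 FPKM in No-SCI and 744 FPKM in SCI, 6.23 and 7.54 times the values of UQCRB itself, and COX6B1-PS1 had 167 and 198 FPKM. NDUFA10L1, a second gene for the NDUFA10 subunit, had 4.90 and 2.33 FPKM (log2 ratio −1.07), against 237 and 186 FPKM for NDUFA10. ATP5HL1 had 14.7 and 27.8 FPKM (log2 ratio 0.91), and the other copies, COX7A2L2, NDUFA13-PS1, NDUFV3-PS1 and NDUFB4L1-PS1, had log2 ratios from −0.06 to 0.39. Reads of near-identical copies cannot be assigned with certainty, so the values of a copy and of its parent are both uncertain.

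Other gene lists of mitochondria and of translation are set beside the oxidative phosphorylation genes here, and differences between lists could not be tested. Closest to their median of 0.23 was that of the mitochondrial ribosomal protein genes. The 114 cytosolic ribosomal protein symbols had a median log2 ratio of 0.59, with 93 higher (81.6%) and 1 lower (0.877%) past the fold. They take in copies, whose reads cannot be assigned with certainty. The 1 lower symbol was the copy RPS2-PS2, with 3.56 FPKM in No-SCI and 1, the lowest value in the table, in SCI. The 75 mitochondrial ribosomal protein genes had a median of 0.29, with 28 higher (37.3%) and 9 lower (12%). The 30 import and cristae genes had 0.13, with 10 higher (33.3%) and 2 lower (6.67%). A list of 19 citrate cycle and pyruvate enzymes lay on the other side, with a median of −0.44 and none higher against 11 lower (57.9%). Its 14 citrate cycle enzymes alone had a median of −0.41, with none higher and 8 lower, among them OGDH, of the oxoglutarate dehydrogenase complex, with 252 and 94.5 FPKM (log2 ratio −1.41). The other 5 genes of the list encode pyruvate carboxylase and parts of the pyruvate dehydrogenase complex, and 3 of them were lower, among them PC, the carboxylase, with 228 and 58.8 FPKM (log2 ratio −1.95). Each of these differences in median between lists is read against −0.12 for all symbols. The shares past the fold are read against 24.6% higher and 35.7% lower of all symbols.

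Of 46 further factors for assembly and expression of the complexes, 9 were higher (19.6%) and 14 lower (30.4%), near the shares of all symbols, with a median log2 ratio of −0.13 against −0.12. TTC19, a complex III factor, went from 5.47 to 19.0 FPKM (log2 ratio 1.80). CMC2, a complex IV factor, went from 10.7 to 2.78 FPKM (log2 ratio −1.94), and ATPAF1, which helps assemble F1, went from 39.8 to 17.8 FPKM (log2 ratio −1.16). Of 17 regulators of mitochondrial biogenesis 2 were higher (11.8%) and 7 lower (41.2%), against 24.6% and 35.7% of all symbols. Their median was −0.15, against −0.12. PPARGC1A, the coactivator PGC-1α, had 16.7 FPKM in No-SCI and 2.92 FPKM in SCI, a log2 ratio of −2.52 and the lowest of that list. It was the only gene of the list at least 2-fold different. SSBP1, the single-stranded DNA-binding protein of mitochondria and the most abundant of the list, had 144 and 215 FPKM. After median centring the medians of both lists were −0.01 and −0.03, near the 0 of all symbols. With the same upper quartile and the same total they stayed under 0, as did the median of all symbols.

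**Figure D5:**
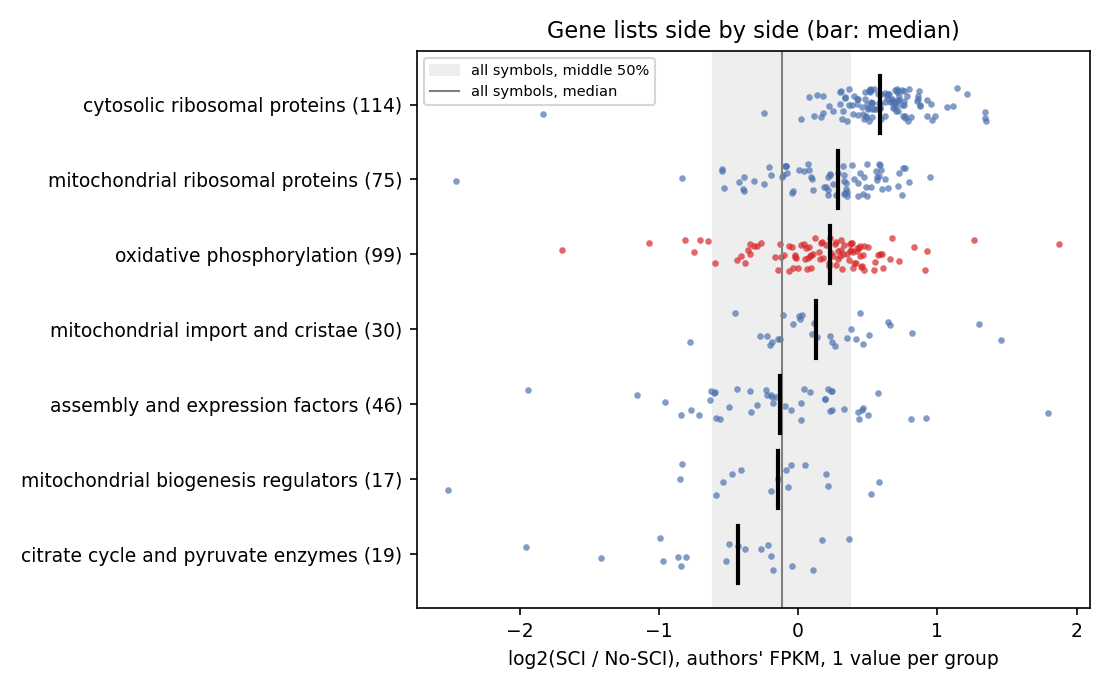
Log2 ratio of SCI to No-SCI (x axis) for each gene of 7 lists (y axis, number of genes in brackets), with a black bar at each median and the middle 50% and median of all symbols in grey. The medians run from 0.59 for cytosolic ribosomal proteins through 0.23 for the oxidative phosphorylation genes (red) to −0.44 for citrate cycle and pyruvate enzymes.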

How the data were processed

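Libraries were made from RNA of the supernatant of digested rat spinal cord. The authors thinned all libraries to the size of the smallest, mapped them to rn6 with STAR 2.5.4b (Ensembl annotation) and ran Cuffdiff with upper quartile normalization (cufflinks 1.3.0). The deposited FPKM values are the authors' estimates, 1 per group in each of 12771 entries, and 0 measurement columns lacked a group. Of the 13 symbols listed more than once, only the entry of higher mean was kept. The deposited p-value and q-value, the fold change ratio and the log2 fold change are the authors' own comparison and were not used. No value lies below 1, and 18 No-SCI and 37 SCI values are exactly 1, so ratios of rare genes are understated if a constant was added. The depth behind a value is unknown.

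From the FPKM values log2 ratios (SCI over No-SCI), counts past 1.3-fold, medians and percentiles were computed, without a test. The genes and lists were chosen with earlier results of these data known. Any of the 99 genes may be named, except 1 whose values are not reported here, and of other lists the 3 most abundant genes and those at least 2-fold different. SCAF1 was dropped from a list because its symbol also names a splicing factor. Symbols were matched to GRCr8 for 98 of the 99 genes, and the table was used for names and promoters, since the values were made on another assembly. The grouping by function and the motif letters were set for this report, the grouping after the values were seen. The ratio and counting steps were tested on simulated data. The tools were matplotlib 3.10.9, scipy 1.17.1, pandas 2.3.3 and numpy 2.4.6 under Python 3.11.15.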

Additional observations from a re-analysis of the deposited data

How the results depend on the processing

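No paired analysis was possible because the table holds 1 value per group. Leaving out a replicate was not run for the same reason. Pseudocounts of 1 and 0.1, summing the entries of a symbol, subtracting 1 from every value and leaving out symbols under a mean of 10 FPKM left the counts of oxidative phosphorylation genes past the fold within 1.5 times and their median log2 ratio within 0.1 of the reported values, with 28 to 31 higher, 7 to 11 lower and medians from 0.23 to 0.24. The same total in both groups gave 36 higher and 8 lower. The 76 general subunits with cytochrome c gave 20 and 7 with a median of 0.22.

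Centring the median of all symbols raised the count of higher genes from 30 to 47 and the median log2 ratio from 0.23 to 0.35, and scaling to the same upper quartile gave a median of 0.33. A fold minimum of 1.5 left 11 higher and 7 lower genes, where 16.9% and 26.3% of all symbols were, and a minimum of 2 left 2 higher and 2 lower. Among symbols with a mean of at least 100 FPKM, a limit added once values were known, 1 gene was lower. There the median log2 ratio was 0.30 for the oxidative phosphorylation genes and 0.035 in place of −0.12 for all symbols. Leaving out symbols with 7 or more significant digits, also chosen afterwards, gave 0.19 (21 higher and 8 lower of 76 genes) and 0.0067. With SCI in place of No-SCI the median level was 198 FPKM in place of 172 FPKM.

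Under median centring the medians of the other lists were 0.71 for cytosolic and 0.41 for mitochondrial ribosomal proteins, −0.32 for citrate cycle and pyruvate enzymes, 0.24 for import and cristae genes, −0.00999 for assembly and expression factors and −0.0295 for biogenesis regulators. With the same upper quartile they were 0.70, 0.39, −0.33, 0.23, −0.0233 and −0.0428. Under both scalings 5 mitochondrial ribosomal protein genes and 1 import gene were lower and 1 citrate cycle enzyme was higher past the fold, and the same total also gave 1 such enzyme. A mean of at least 10 FPKM, or 1 subtracted, left 0 cytosolic ribosomal protein genes lower. Directions of genes with a log2 ratio between −0.12 and 0 turn under median centring, which puts 79 in place of 71 of the 99 genes above 0.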
